A study of Mus musculus with 4 samples.

Results

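The miR-34 and miR-449 miRNAs were examined in small RNA libraries of mouse brain cortex. They were chosen by name from the deposited table, as the 7 mature arms miR-34a-5p, miR-34b-5p, miR-34b-3p, miR-34c-5p, miR-34c-3p, miR-449a-5p and miR-449c-5p among 942 mature miRNAs, and all 7 were found. The cortexes came from 4 mice of the B6C3 strain aged 9 months. WT1 and WT2 were wild type, and APP3 and APP4 (AD mice) carried the APPswe/PS1deltaE9 transgenes, whose expression is restricted to neurons and which make a mouse and human hybrid of APP with the Swedish mutation and a deletion form of presenilin 1 of human origin. WT1 and APP4 were siblings (pair 1), as were WT2 and APP3 (pair 2), so that each genotype had 2 mice and each pair 1 mouse of each genotype.

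MiR-34a is transcribed alone, and p53, the transcription factor of the DNA damage response, is known to raise it. MiR-34b and miR-34c share one primary transcript, which also responds to p53 but is best known from ciliated epithelia such as those of the airway, the oviduct, the ependyma and the choroid plexus. The miR-449 cluster lies in an intron of Cdc20b and acts with miR-34b/c in making multiciliated cells. The 5p arms of these genes are grouped as one family because they share a seed, the bases near the 5′ end that pair with target mRNAs, and Sirt1, Bcl2 and Notch pathway genes are among their known targets.

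The mature sequences are shown first, because the shared seed defines the family and because near-identical arms could exchange reads. RefSeq (GRCm38.p6) gave a mature sequence for 6 of the 7 members, all but miR-34c-5p. They are written 5′ to 3′, with the seed (bases 2 to 8) in capitals. The following 4 share the seed GGCAGUG.
miR-34a-5p: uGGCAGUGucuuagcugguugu
miR-34b-5p: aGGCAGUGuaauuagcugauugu
miR-449a-5p: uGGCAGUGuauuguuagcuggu
miR-449c-5p: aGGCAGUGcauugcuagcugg
The other 2 are 3p arms with the seed AUCACUA.
miR-34b-3p: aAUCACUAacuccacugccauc
miR-34c-3p: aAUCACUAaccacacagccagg
No mature sequence outside the listed members had either seed among 1679 in the RefSeq table. Compared base by base from the 5′ end, miR-34a-5p and miR-449a-5p were identical at 15 of 22 bases, miR-449a-5p and miR-449c-5p at 18 of 21, and the pair of 3p arms at 17 of 22. The closest stretch to miR-34b-5p in the hairpin of miR-34c differed at 2 of 23 bases, A11G and U23C, with positions counted from the 5′ end of miR-34b-5p. The study's methods allow up to 2 mismatches for matching to databases but none for miRBase, and then count variants with changed bases. Whether reads of miR-34b-5p and miR-34c-5p were exchanged between these arms was not tested.

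The hairpin of miR-34a lies on the plus strand of chromosome 4 (chr4:150068454-150068555, GRCm38), where its end overlaps the exon of Gm37795, an unreviewed transcript. The hairpins of miR-34c (chr9:51103034-51103110) and miR-34b (chr9:51103562-51103645) lie 451 bases apart on the minus strand of chromosome 9, inside the bounds of Btg4 on the opposite strand and outside its exons. On the plus strand of chromosome 13, miR-449c (chr13:113035983-113036091) and miR-449a (chr13:113037534-113037624) lie 1442 bases apart in an intron of Cdc20b.

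The deposited reads were divided by the total miRNA reads of a library, which lay between 19048747 and 26085776, and levels are given as reads per 1000000 miRNA reads (RPM). A miRNA with 3 reads had a level of 0.115 to 0.157 RPM, depending on the library. The neuronal markers miR-124-3p, miR-9-5p and miR-128-3p lay at 7183 to 36979 RPM, the oligodendrocyte markers miR-219-5p and miR-338-3p summed to 1368 to 1742 RPM, and the liver marker miR-122-5p lay at 0.940 to 4.45 RPM. A level in bulk tissue does not tell fewer cells of a type from less RNA per cell. Levels of different miRNAs were compared without a correction for the unequal capture of small RNAs by ligation.

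Only 2 members were abundant. MiR-34c-5p and miR-34a-5p ranked 137 and 185 among the 942 miRNAs by mean RPM, miR-34b-3p ranked 361, and the next 3 members ranked between 388 and 404. MiR-34c-5p was first and miR-34a-5p second among the members in every library, and the levels of miR-34c-5p (291 to 399.6 RPM) and miR-34a-5p (124 to 191 RPM) did not overlap. MiR-34b-3p (8.97 to 14.3 RPM) was in place 3 in every library, above miR-449a-5p (7.02 to 8.56 RPM) and miR-34c-3p (5.75 to 7.24 RPM), and overlapped only with miR-34b-5p (6.48 to 9.22 RPM). MiR-449a-5p, miR-34b-5p and miR-34c-3p overlapped one another, so neighbours among these did not differ beyond the spread of the mice. MiR-449c-5p was near the limit of detection.

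**Figure D1:**
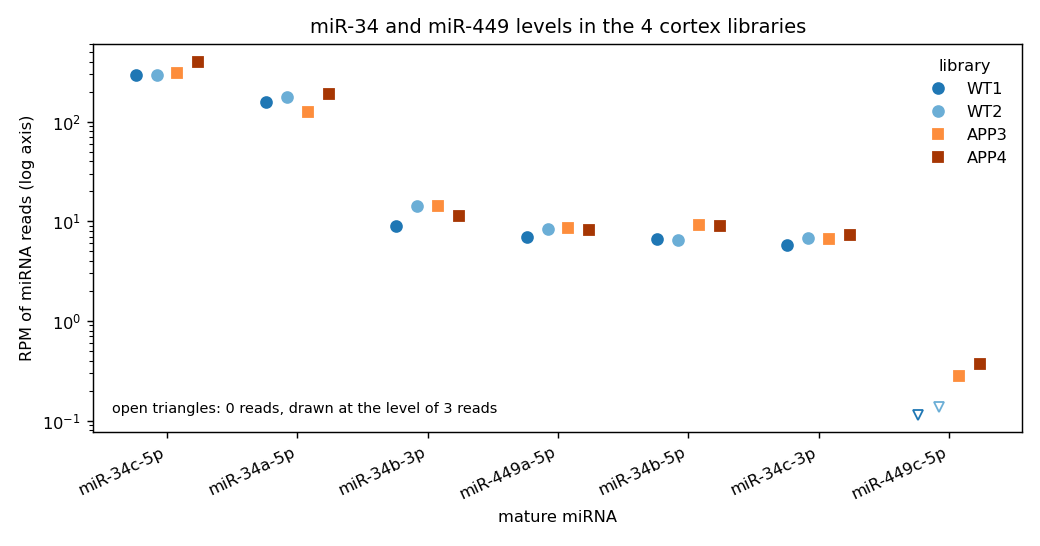
Levels of the 7 members in the 4 libraries, as RPM on a log axis, with circles for WT mice and squares for AD mice. MiR-34c-5p (291 to 399.6 RPM) and miR-34a-5p (124 to 191 RPM) stand above the others, and miR-449c-5p has 0 reads in both WT mice, drawn as open triangles at the level of 3 reads.

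MiR-34a-5p, the solitary p53-responsive member, had 157 RPM in WT1 and 191 in its sibling APP4, and 178 in WT2 and 124 in its sibling APP3. On this scale the AD mice were the lowest and the highest of the 4, and the genotypes overlapped. The genotype means were 167 ± 14.4 RPM (SD, n = 2) for WT and 157 ± 47.1 RPM (SD, n = 2) for AD. Within the sibling pairs it moved in opposite directions, with a log2 fold change of 0.28 (SE 0.03) for APP4 against WT1 and -0.52 (SE 0.04) for APP3 against WT2. The SE of a log2 fold change between 2 libraries covers counting error only. Two-sided Fisher's exact tests with a false discovery rate (FDR, Benjamini-Hochberg) over all miRNAs with a read gave an FDR of 1.35e-16 and 1.06e-45. Neither change reached the 1.5-fold that the calls below also require. Between the AD mice the log2 difference was 0.62 (SE 0.04, FDR 4.38e-63) in favour of APP4, which was larger than either difference between siblings.

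The other arm of this hairpin, miR-34a-3p, had 12 reads in both mice of pair 1, and 19 in WT2 against 6 in APP3. The 5p arm therefore held between 99.5% and 99.8% of the reads of the hairpin. APP3 was lowest for both arms, and miR-34a-3p passed the Fisher rule in pair 2 with a log2 fold change of -1.53 (SE 0.65, FDR 0.0426).

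MiR-34c-5p, the main arm of the miR-34b/c cluster, had 294 RPM in WT1 and 399.6 in APP4, and 291 in WT2 and 305 in APP3. Both AD mice lay above both WT mice, by little in APP3 and clearly in APP4. The genotype means were 293 ± 2.46 RPM (SD, n = 2) for WT and 352 ± 66.8 RPM (SD, n = 2) for AD. The log2 fold change was 0.44 (SE 0.02, FDR 3.56e-78) in pair 1 and 0.07 (SE 0.03, FDR 0.0224) in pair 2 by Fisher's exact test, under 1.5-fold in both. With library sizes corrected by the trimmed mean of M-values (TMM), which moved all log2 fold changes by -0.18 in pair 1 and -0.03 in pair 2, the levels became 310.0 RPM in WT1 and 371 in APP4, and 297 in WT2 and 306 in APP3, and the genotypes then overlapped. The FDR of pair 2 was 0.271 on this scale. The pair 1 log2 fold change was 0.26 for miR-34c-5p and 0.10 for miR-34a-5p with TMM, and miR-34a-5p was then highest in WT2 (182 RPM, against 177 in APP4).

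MiR-34b-5p, which shares its transcript with miR-34c, had 6.63 RPM in WT1 and 8.98 in APP4, and 6.48 in WT2 and 9.22 in APP3. The mice of one genotype were close to each other and the genotypes were apart, also with TMM library sizes. The genotype means were 6.55 ± 0.110 RPM (SD, n = 2) for WT and 9.10 ± 0.169 RPM (SD, n = 2) for AD. The log2 fold change was 0.44 (SE 0.16, FDR 0.0148) in pair 1 and 0.51 (SE 0.16, FDR 0.00478) in pair 2 by Fisher's exact test. Between the WT mice it was -0.03 (SE 0.16) and between the AD mice -0.04 (SE 0.15). The FDR of pair 1 was 0.222 with TMM library sizes, and both changes stayed under 1.5-fold. These values rest on 143 to 196 reads per library, set against 6425 to 7682 reads of the near-identical miR-34c-5p. For each read of miR-34b-5p, APP3 had 33.1 reads of miR-34c-5p and the other mice 44.4 to 44.9, and the part of exchanged reads in the level of miR-34b-5p was not tested.

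The 3p arms of the cluster did not follow the genotype. MiR-34b-3p had 8.97 RPM in WT1 and 11.4 in APP4, and 14.2 in WT2 and 14.3 in APP3. MiR-34c-3p had 5.75 and 7.24 RPM in the mice of pair 1, and 6.75 and 6.68 in those of pair 2. MiR-34b-3p was lower in both mice of pair 1 than in both mice of pair 2. Its log2 fold change was 0.34 (SE 0.14, FDR 0.0301) in pair 1 and 0.01 (SE 0.12, FDR 1) in pair 2 by Fisher's exact test, against 0.66 (SE 0.12, FDR 3.70e-07) for WT2 against WT1. With TMM library sizes the value in pair 1 was 0.16 (FDR 0.412). MiR-34c-3p had log2 fold changes of 0.33 (SE 0.17, FDR 0.122) in pair 1 and -0.02 (SE 0.17, FDR 1) in pair 2.

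MiR-449a-5p, the main arm of the multiciliated-cell cluster, had 7.02 RPM in WT1 and 8.24 in APP4, and 8.33 in WT2 and 8.56 in APP3. WT1 was lowest, the other mice lay close together and the genotypes overlapped. Its log2 fold change was 0.23 (SE 0.16, FDR 0.263) in pair 1 and 0.04 (SE 0.15, FDR 0.955) in pair 2 by Fisher's exact test. The 95% counting intervals of these differences ran from -0.07 to 0.54 and from -0.26 to 0.33.

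MiR-449c-5p had 0 reads in WT1 and WT2, 6 reads in APP3 and 7 in APP4. Reads were thus seen in both AD mice and in neither WT mouse, at 0.282 and 0.367 RPM. Taking 3 reads per library as the highest level that 0 reads allow, the observed level of APP4 was at least 3.20-fold higher than that of WT1, and that of APP3 at least 2.08-fold higher than that of WT2. These bounds do not cover the counting error of the 6 and 7 reads. Fisher's exact test gave an FDR of 0.00696 in pair 1 and 0.0399 in pair 2. It compares single libraries, and miR-449c-5p entered it only through its reads in the AD mice. The closest stretch in the hairpin of miR-449a differed from miR-449c-5p at 3 of 21 bases, A1U, C9U and C14U, counted from the 5′ end of miR-449c-5p. Whether a few variant reads of miR-449a-5p were counted here was not tested. The 3p arms of both hairpins, miR-449a-3p and miR-449c-3p, had at most 2 reads in any library. No row of a miR-449b hairpin was found in the deposited counts.

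Calls required an FDR below 0.05 together with a change of 1.5-fold or more. In pair 1 the rule called 1 of the 7 members, where it called 11.6% of all 899 miRNAs tested, and in pair 2 it called 1 of 7, where it called 6.81% of 896. In both pairs this was miR-449c-5p, which had 0 reads in both WT mice. It was tested only through its reads in the AD mice and could not come out lower. The same rule called 1 of 6 members between the WT mice (miR-34b-3p, with 10.1% of all miRNAs called) and 1 of 7 between the AD mice (miR-34a-5p, with 8.05% called). At an FDR under 0.05 alone, 5 of 7 members passed in pair 1, against 40.3% of all miRNAs, and 4 of 7 in pair 2, against 36.0%. The median log2 fold change of the members was 0.34 in pair 1 and 0.04 in pair 2, beside 0.21 and 0.05 over all miRNAs tested. All 7 members were higher in APP4 than in WT1, and 5 of 7 were higher in APP3 than in WT2. On this scale the median over all miRNAs tested was also positive in both pairs. The share of all miRNAs that were higher was not computed, so whether these counts set the members apart was not tested. Both counts include miR-449c-5p. Both AD mice lay above both WT mice for 3 of 7 members (miR-34b-5p, miR-34c-5p and miR-449c-5p), as they did for 24.0% of all 942 miRNAs. Of these, miR-449c-5p could not have been lower. In both AD mice 0 members were lower, with 9.77% of all miRNAs. The comparisons within a genotype use the same libraries as the sibling pairs.

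**Figure D2:**
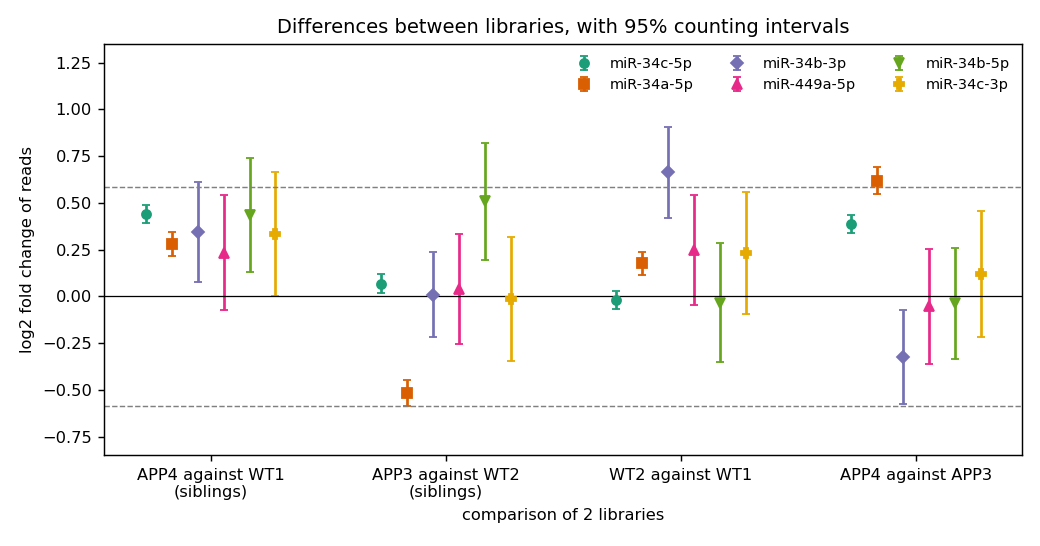
Log2 fold changes of 6 members in each sibling pair and between mice of one genotype, with bars for the 95% counting interval and dashed lines at 1.5-fold. MiR-34a-5p lies at 0.28 in pair 1 and -0.52 in pair 2, and miR-34b-5p lies at 0.44 and 0.51 but near 0 between mice of one genotype. MiR-449c-5p is left out because its WT libraries held 0 reads.

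With the mice as replicates, 6 of the 7 members passed the filter on low counts, all but miR-449c-5p. In edgeR's quasi-likelihood test 0 of the 6 had a Benjamini-Hochberg adjusted p under 0.05, and 0 of the 6 had an unadjusted p under 0.05. Over all 623 miRNAs tested, 0 were called (0.0%) and 36 had an unadjusted p under 0.05. DESeq2 called 0 of the 7 members and 0 of all 942 miRNAs. In DESeq2, 1 of 7 members (miR-449c-5p, p 0.0177) and 28 of the 942 miRNAs had an unadjusted p under 0.05. The log2 fold change of the AD against the WT mice was 0.34 (SE 0.20, adjusted p 0.929) for miR-34b-5p, 0.12 (SE 0.20, adjusted p 0.967) for miR-34c-5p and -0.23 (SE 0.23, adjusted p 0.958) for miR-34a-5p in edgeR. The values of the other 3 lay between 0.00 and 0.03. Without a filter, miR-449c-5p had an unadjusted p of 0.00575 in edgeR and an adjusted p of 0.880. In that setting 50 of 942 miRNAs had an unadjusted p under 0.05. MiR-449c-5p was in these tests only through its reads in the AD mice.

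The solitary miR-34a was then set against the clusters within each library, as a ratio of reads that does not depend on the scaling. MiR-34c-5p alone, their main arm, was used first, a choice made after the data were seen. The p-values of this ratio therefore describe these libraries and are not a planned test. For each read of miR-34c-5p there were 0.534 reads of miR-34a-5p in WT1 and 0.477 in APP4, and 0.610 in WT2 and 0.407 in APP3. Both AD mice were below both WT mice. Of 759 other miRNAs with a read in every library, 25.8% were likewise lower relative to miR-34c-5p in both AD mice. The log2 ratio differed by -0.16 (SE 0.04) in pair 1 and by -0.58 (SE 0.04) in pair 2, and two-sided Fisher's exact tests of both miRNAs gave p = 6.55e-05 (FDR 6.55e-05 over 4 comparisons) and p = 3.95e-40 (FDR 1.58e-39). It also differed by 0.19 (SE 0.04, FDR 2.35e-06) between the WT mice and by 0.23 (SE 0.04, FDR 3.89e-07) between the AD mice by the same exact test. Over the mice, the mean log2 ratio was -0.81 in the WT mice and -1.18 in the AD mice, with an exact two-sided permutation p of 0.333, the smallest that 2 against 2 mice can give.

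Against the sum of the 6 cluster arms, the difference of the log2 ratio was -0.15 (95% counting interval -0.23 to -0.08) in pair 1 and -0.59 (-0.68 to -0.51) in pair 2. Against miR-449 alone it was -0.02 (-0.33 to 0.29) and -0.60 (-0.90 to -0.30). The AD mice, which share a genotype, differed by 0.28 (0.19 to 0.36) against the sum and by 0.66 (0.35 to 0.97) against miR-449 alone, so the differences of pair 1 against the sum and of pair 2 against miR-449 were no larger than those between these mice. In pair 1 the change of miR-34a could not be told from that of miR-449 at this depth. Of all 5p reads of the family, miR-34c-5p made up 63.3% in WT1 (95% Wilson interval 62.4 to 64.1) and 65.7% in APP4 (64.9 to 66.6), and 60.2% in WT2 (59.3 to 61.1) and 68.2% in APP3 (67.3 to 69.1). MiR-34a-5p made up between 27.8% and 36.7%, and the other 5p arms at most 2.06% each.

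The hairpins of the miR-34b/c cluster differed in the use of their arms. The 5p arm of miR-34c held between 97.7% and 98.2% of the reads of its arms in the 4 libraries. For miR-34b the 3p arm was the larger in each library, and the 5p arm held 42.5% in WT1 and 44.1% in APP4, and 31.3% in WT2 and 39.2% in APP3. WT2 was lowest, and its 95% Wilson interval (27.2 to 35.7) did not reach that of WT1 (37.8 to 47.4). Of 8 two-sided Fisher's exact tests over both hairpins and 4 comparisons, 2 passed an FDR of 0.05, both for miR-34b. The 5p share was 7.91 percentage points higher in APP3 than in WT2 (FDR 0.0490) and differed by -11.2 points for WT2 against WT1 (FDR 0.00547). The pair 1 difference was 1.57 points (FDR 0.668). With the hairpins summed by arm, to allow for exchanged reads, the 5p share was 95.3% in WT1 and 95.6% in APP4, and 93.4% in WT2 and 93.7% in APP3. Siblings then differed by 0.30 and 0.33 points (FDR 0.430 for both, exact test), and mice of one genotype by -1.92 and 1.89 points (FDR 5.12e-07 for both). In WT2 and APP3 the summed 5p reads held 6425 and 6489 reads of miR-34c-5p, and 143 and 196 of miR-34b-5p. A shift of miR-34b is diluted in this sum, which cannot show whether reads were exchanged.

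**Figure D3:**
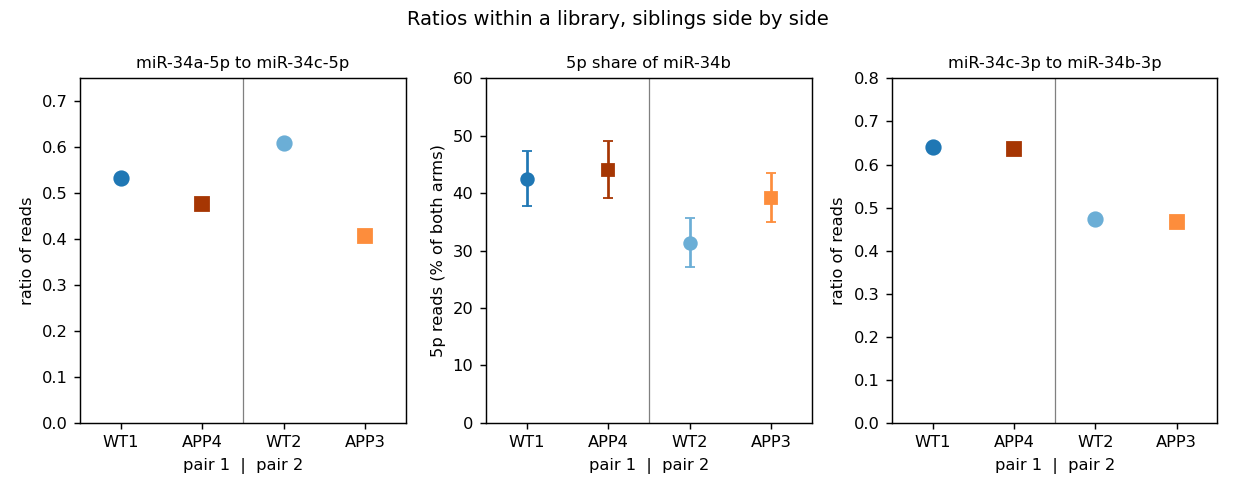
Ratios within each library, with siblings side by side, circles for WT mice and squares for AD mice. The left panel gives reads of miR-34a-5p per read of miR-34c-5p (0.407 to 0.610), the middle panel the 5p share of miR-34b with its 95% Wilson interval, and the right panel reads of miR-34c-3p per read of miR-34b-3p, which lie near 0.64 in pair 1 and near 0.47 in pair 2.

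Markers of epithelia were read beside these levels. The 4 arms of miR-204 and miR-211, which are abundant in the choroid plexus, summed to 3501 RPM in WT1 and 2928 in APP4, and to 4389 in WT2 and 3507 in APP3. Their main arm, miR-204-5p, was lowest in APP4 (2900 RPM), where miR-34c-5p was highest, and miR-211-3p had 0 reads in 3 libraries. The rule called 1 of the 4 higher in pair 1, beside 9.68% of all miRNAs, and 1 in pair 2, beside 3.35%, both times miR-211-5p, and it called 0 lower. A list of 11 miRNAs of other epithelia and sensory cells, led by the miR-200 and miR-182/183/96 clusters, summed to 1335 RPM in WT1 and 6198 in APP4, and to 852 in WT2 and 1140 in APP3, with none at 0 reads in any library. In pair 1, 8 of the 11 were called higher, beside 9.68% of all miRNAs, all from the miR-200 and miR-182/183/96 clusters. MiR-203-3p (log2 fold change 0.21), miR-205-5p (0.34) and miR-375-3p (-0.06) were not called there. MiR-182-5p alone had 3833 RPM in APP4. In pair 2, 4 of the 11 were called lower, beside 3.46% of all miRNAs. There miR-182-5p (0.57), miR-183-5p (0.58) and miR-375-3p (0.54) were higher but under 1.5-fold. The excess of this list in APP4 goes with the highest level of miR-34c-5p in the same library, and its part in that level was not tested. MiR-34a-5p was also highest in APP4 by RPM, but not with TMM library sizes. MiR-449a-5p was not highest in APP4. Pair 2 does not hold APP4, and there the log2 fold change of miR-34c-5p was 0.07. Without APP4 the log2 fold change of miR-34c-5p in edgeR was -0.02 in place of 0.12, and that of miR-34a-5p was -0.51.

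**Figure D4:**
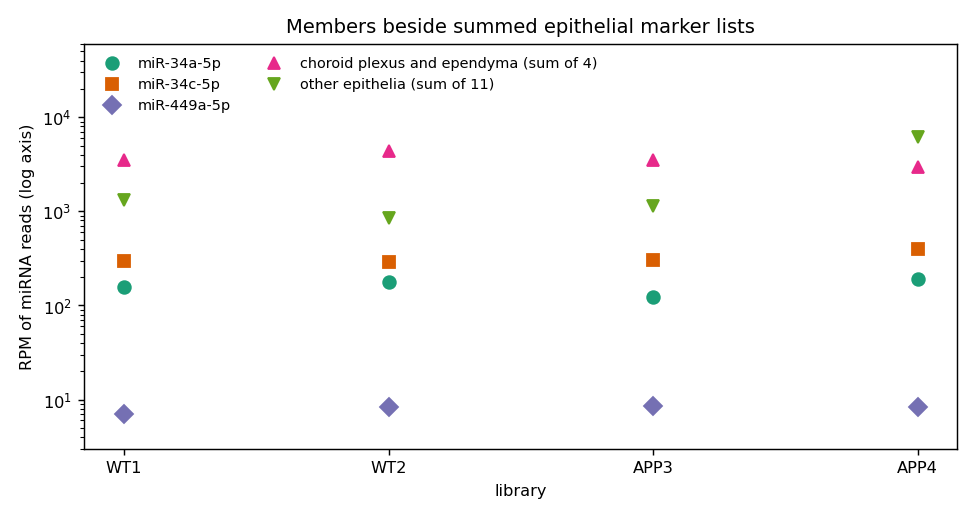
RPM of miR-34a-5p, miR-34c-5p and miR-449a-5p in the 4 libraries, with the summed RPM of 4 choroid plexus and ependyma arms and of 11 miRNAs of other epithelia, on a log axis. The other epithelia sum to between 852 and 1335 RPM in 3 libraries and to 6198 in APP4, while miR-449a-5p stays between 7.02 and 8.56 RPM.

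Of 10 other miRNAs linked to p53, which are transcribed or processed under its control, 2 were called higher and 0 lower in pair 1 (9.68% and 1.89% of all miRNAs). In pair 2, 0 were called higher and 1 lower (3.35% and 3.46% of all miRNAs). The members called were miR-200c-3p and miR-141-3p in pair 1 and miR-141-3p in pair 2, which are also epithelial markers. The median log2 fold change of the 10 was 0.28 in pair 1 and -0.01 in pair 2, beside 0.21 and 0.05 over all miRNAs. MiR-192-5p had between 1354 and 1627 RPM and was not called in either pair. By RPM, miR-192-5p, miR-143-3p and miR-145a-5p were lower in both AD mice than in both WT mice, as were 9.77% of all miRNAs. MiR-194-5p, miR-16-5p and miR-22-3p were higher in both, as were 24.0%, and the rest overlapped.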

How the data were processed

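Small RNA of the cortex of 4 mice was sequenced. The authors trimmed and filtered the reads, kept those of 18 to 35 nt, matched them to miRBase and deposited counts of mature and variant reads for 942 mature miRNAs without normalization. The authors also deposited the same values as RPM of clean reads, named TPM, which served here to recover the clean read totals. The study's methods name GRCm38, and the submitters' processing notes name mm9 and CASAVA 1.8. Hairpin positions are from RefSeq and GENCODE vM21 on GRCm38.

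Counts were scaled to the miRNA reads of each library. Fisher's exact test (scipy 1.17.1) follows the study's methods, with log2 fold changes computed after adding 0.5 read. Genotypes were compared with edgeR 4.0.16 (filterByExpr, TMM, quasi-likelihood) and, as an alternative, DESeq2 1.42.0. The SE in edgeR is the log2 fold change over the square root of F. Fisher's exact test and edgeR, but not DESeq2, were run on simulated counts with known changes. The counts simulated for Fisher's exact test had no variation between mice. Those for edgeR varied less between mice than the data and held larger changes than the members that passed the filter. They do not show how well changes of the members' size would be found. Intervals cover counting error only, not PCR. The p-values of edgeR and DESeq2 set the genotype difference against a spread between mice. That spread is estimated from 2 mice per genotype with help from the other miRNAs. The permutation p can be no smaller than 0.333, whatever the spread.

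The sibling pairs are those of the study's methods. Deviations of siblings from their genotype means had r = 0.235 across 252 miRNAs with at least 50 RPM.

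The members and lists were chosen with earlier results of these data known. Named were the members, other arms of their hairpins, the lists, and the 3 nearest profiles. The planned p for the sum of the cluster arms is not given, since it is a score over members. miR-219-3p of the marker list was not analysed here. Every sample column was used.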

Additional observations from a re-analysis of the deposited data

Results flagged for a closer look

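MiR-34a-5p moved in opposite directions in the sibling pairs, with a log2 fold change of 0.28 for APP4 against WT1 and -0.52 for APP3 against WT2. Both passed Fisher's exact test at an FDR under 0.05, and neither reached 1.5-fold. With 1 mouse per genotype in a pair, no test of this contrast was run.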

How the results depend on the processing

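The single call among the members in each pair, that of miR-449c-5p, was lost (0 calls in both pairs) with the Bonferroni correction. That correction called 7.23% of all miRNAs in pair 1 and 3.79% in pair 2. There were also 0 calls with counts scaled to 1000000 reads and with a minimum of 10 RPM, which left 6 and 3 members. Of all miRNAs tested in pairs 1 and 2, the scaled counts called 5.30% and 3.68%, and the minimum called 13.8% and 7.92%. MiR-449c-5p was not tested in these 2 settings, since its level rounds to 0 reads or lies below the minimum. TMM, clean read totals, a limit of 2-fold and 5 added reads kept 1 call in each pair, where they called 2.57% to 11.6% of all miRNAs. Added reads change the log2 fold change only and leave Fisher's p as it was. The small change of miR-34b-3p in pair 2 turned to -0.021 with TMM, -0.010 with clean read totals and -1.88e-05 with scaled counts. Against miR-449 alone, the relative change of miR-34a-5p in pair 1 was -0.016 and no longer passed Fisher's exact test. With the hairpins summed by arm, the 5p share in pair 2 differed by 0.33 points and no longer passed. That sum is mostly miR-34c-5p, so this loss does not decide on the arms of miR-34b. The FDR under 0.05 of miR-34b-5p in both pairs, of miR-34b-3p in pair 1 and of miR-34c-5p in pair 2 was lost with scaled counts and with the Bonferroni correction. With TMM it was lost for miR-34b-5p and miR-34b-3p in pair 1 and for miR-34c-5p in pair 2, the last also with clean read totals (FDR 0.118). That of miR-34a-5p in pair 1 was lost with scaled counts. The members with both AD mice above both WT mice were 2 with TMM, beside 16.8% of all miRNAs, and 3 with clean read totals, beside 22.7%. MiR-449c-5p, which could not have been lower, was among them in both settings.

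In edgeR, 0 members were called without the filter, without TMM or with the sibling block. Over all miRNAs these settings called 0 of 942, 0 of 623 and 2 of 623 (0.321%). The sibling block turned miR-449a-5p to -0.00012. With each mouse left out, the lone mouse being assumed to vary like the others, the log2 fold change ran from -0.51 to -0.01 for miR-34a-5p, from 0.25 to 0.41 for miR-34b-5p, from -0.23 to 0.37 for miR-34b-3p, from -0.024 to 0.25 for miR-34c-5p, from -0.049 to 0.12 for miR-34c-3p and from -0.093 to 0.11 for miR-449a-5p. The TMM check of overlap and miR-34c-5p alone were chosen after seeing the data. Depth limits miR-449c-5p, with at most 7 reads, and the minor arms.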

Other observations

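The ratio of the 3p arms of the miR-34b/c cluster was close in siblings, although the levels of both arms were not the same in pair 1. There were 0.641 reads of miR-34c-3p for each read of miR-34b-3p in WT1 and 0.636 in APP4, and 0.475 in WT2 and 0.467 in APP3. This ratio was chosen after its values were seen and is given as a description, with no test.

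Among 376 other miRNAs that averaged 10 RPM or more, the profile over the 4 libraries nearest to that of miR-34a-5p was that of miR-671-5p, with 12.7, 14.0, 9.92 and 15.9 RPM in WT1, WT2, APP3 and APP4. Its root mean square distance on the centred log2 scale was 0.029, followed by miR-350-3p (0.063) and miR-125a-3p (0.074), beside a median of 0.28. Nearest to the summed clusters were miR-879-5p (0.035), miR-676-3p (0.039) and miR-126-3p (0.043), the last an endothelial miRNA, beside a median of 0.19. These distances rest on 4 libraries and describe them only.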
